A study of Mus musculus with 19 samples.

Results

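The glucocorticoid receptor gene Nr3c1 and 9 genes that glucocorticoids are well known to induce were followed in kidney and liver of male mice with and without macroH2A1.1. The members were fixed by name (Nr3c1, Tsc22d3, Fkbp5, Per1, Klf9, Sgk1, Zbtb16, Errfi1, Mt1 and Mt2) and found by Ensembl identifier in a table of raw counts per gene. All 10 were among its 26506 genes. MacroH2A1.1 is a splice form of macroH2A1, a histone variant whose gene is H2afy. Knockout animals were homozygous for a deletion of the alternative exon 6b of that gene, made with soluble Cre in zygotes. Wild-type animals came from crosses of heterozygotes, and the labels name no allele or agent that both genotypes shared. Both genotypes were on a C57BL/6J background. RNA came from homogenized whole tissue and was sequenced after poly(A) selection, in 5 knockout and 5 wild-type kidneys and in 5 knockout and 4 wild-type livers. The number in a library's name (13 to 16 and 18 in knockouts, 19, 20 and 22 to 24 in wild types) was read as that of the mouse, and the liver of mouse 23 was not analysed here. Age, the diet that a given mouse received (both standard and ketogenic chow were in use) and the time of day of tissue collection were not given in the sources used here. The labels give no other sign that replicates are separate animals, and p-values cover only the spread among these libraries, which may be technical.

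Cortisol in humans and corticosterone in mice are made by the adrenal cortex and reach every tissue through the blood. Inside a cell the hormone binds the receptor, which is held ready by heat shock proteins and immunophilins, and the complex moves to the nucleus and binds DNA at paired elements to switch genes on. Secretion follows the time of day, stress and fasting, and in liver the receptor is known for raising the enzymes of amino acid breakdown and glucose production, in kidney for acting on salt transport.

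Of the 10 genes, 8 had entries among the RefSeq promoter sequences of GRCm38.p6, with 17 start sites in all. Zbtb16 had no entry and that of Nr3c1 was not used here. The 250 bases before each start were searched on both strands for the paired receptor element (AGAACA, 3 bases of any kind, TGTTCT), for its single arm TGTTCT, for the core of the metal response element (TGCACNC or TGCGCNC) that the zinc sensor MTF1 binds in metallothionein genes, for the E-box CACGTG of the circadian clock and for the cAMP element TGACGTCA. Every perfect paired element also holds the single arm on both strands. A perfect paired element stood before 1 start of Sgk1, at position -189 from it, and before 3 of 32851 promoters in the table (0.00913%). With up to 2 mismatches over the 12 fixed positions the share was 1.56% of promoters, and among the members again only Sgk1 had a match. All shares are per start site, while Sgk1 had the most start sites of the members and so more sequence searched. The single arm was found at Sgk1 and Tsc22d3 (16.1% of all promoters), at position -185 in Tsc22d3. Mt2 held 3 metal response cores and Mt1 1, at position -23, and a start of Per1 also had 1, while 21.4% of all promoters held at least 1. Sequences of Sgk1 (with the paired element), Tsc22d3 (with only the single arm), Mt2 and Mt1 (with metal response cores) are printed. They run 5′ to 3′ on the gene's strand and hold no annotated exon base of their gene. The Sgk1 sequence lies before an internal start, well inside the annotated gene. Capitals mark the receptor element, the single arm, the E-box and the metal response cores. In the Sgk1 sequence the E-box and a single arm overlap near the 5′ end.
Sgk1, chr10:21993640-21993889, plus strand: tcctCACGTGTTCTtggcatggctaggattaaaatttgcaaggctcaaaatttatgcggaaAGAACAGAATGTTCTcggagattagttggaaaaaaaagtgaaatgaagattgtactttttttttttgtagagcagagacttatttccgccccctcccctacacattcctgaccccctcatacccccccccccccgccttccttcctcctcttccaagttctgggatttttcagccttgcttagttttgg
Tsc22d3, chrX:140600660-140600772, minus strand: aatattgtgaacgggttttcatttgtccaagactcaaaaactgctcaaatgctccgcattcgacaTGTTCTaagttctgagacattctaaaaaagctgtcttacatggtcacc
Mt2, chr8:94172368-94172617, plus strand: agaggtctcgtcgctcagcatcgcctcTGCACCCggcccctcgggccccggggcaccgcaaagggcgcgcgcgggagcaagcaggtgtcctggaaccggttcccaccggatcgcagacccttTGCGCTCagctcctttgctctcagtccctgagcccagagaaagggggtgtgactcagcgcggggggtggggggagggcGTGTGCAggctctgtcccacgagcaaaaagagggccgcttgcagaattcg
Mt1, chr8:94178839-94179081, plus strand: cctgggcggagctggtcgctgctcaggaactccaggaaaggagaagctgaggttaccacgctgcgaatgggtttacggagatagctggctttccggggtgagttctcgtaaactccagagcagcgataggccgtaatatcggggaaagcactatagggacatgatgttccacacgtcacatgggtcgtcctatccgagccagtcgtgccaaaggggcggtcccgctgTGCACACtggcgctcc
A match of letters is a description of the sequence and does not show binding. The E-box also stood before a start of Per1 and of Fkbp5 (6.02% of all promoters), and the cAMP element before a start of Errfi1 (1.55%).

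The total count per library was 25919138 to 35131720 in kidney and 26084473 to 34806035 in liver. Levels are CPM, counts scaled to library size after TMM within each tissue, and CPM per kilobase of exon where genes are compared. The 8 proximal tubule markers summed to 33873 to 41664 CPM in kidney, and the 9 hepatocyte markers to 100003 to 127979 CPM in liver, so the tissues held the cells their labels name. H2afy counts cover both splice forms and so do not check the deletion. In kidney they lay at 49 to 61.1 CPM in knockouts and 65.6 to 90.7 CPM in wild types. Knockout livers had 42.9 to 52.9 CPM. Wild-type livers 19, 20 and 22 had 86.3, 77.9 and 74.5 CPM, and the liver library labelled wild type 24 had 53.5 CPM. In bulk tissue, fewer cells of a type and less RNA per cell cannot be told apart.

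Kidney libraries of 2 mice stood apart in other transcripts. Whether those transcripts bear on these genes was not tested. The knockout kidney 16 contained adrenal transcripts. The corticosterone enzyme gene Cyp11b1 was at 26.7 CPM there and at most 0.0703 CPM in the other kidneys, Cyp21a1 at 56.5 against at most 0.114 CPM, and the medullary gene Chga at 21.8 against at most 0.0633 CPM. The sum of 12 adrenal markers, most of it from Fdx1 and Star outside that library, was 95.2 to 389 CPM in knockout and 107 to 129 CPM in wild-type kidneys, the 389 being mouse 16. Cyp11b2 was at 3.71 CPM in knockout kidney 16 and at 0 in all other kidneys of both genotypes. The wild-type kidney 24 had a summed level of immediate early genes of 711 CPM, against 124 to 220 CPM in the other kidneys. For several members, values without these mice are also given, and the 2 mice were chosen after the data were seen.

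The receptor gene itself did not separate the genotypes. Nr3c1 (ENSMUSG00000024431) was at 96.9, 85.2, 81.6, 83.3 and 76.2 CPM in the knockout kidneys 13, 14, 15, 16 and 18, and at 97.7, 91.5, 86.7, 80.6 and 100 CPM in the wild-type kidneys 19, 20, 22, 23 and 24. In liver it was at 57.5, 55.4, 41.5, 41.3 and 45 CPM in knockouts and at 46.2, 43.9, 52.6 and 55.1 CPM in wild types 19, 20, 22 and 24. The groups overlapped in both tissues, and the levels varied little between mice. The log2 fold change, knockout against wild type, was -0.11 (SE 0.09, edgeR adjusted p = 0.999) in kidney and -0.04 (SE 0.13, edgeR adjusted p = 1) in liver. Without mice 16 and 24 the values were -0.07 in kidney and 0.07 in liver.

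Among the induced genes, values were mostly higher in knockouts, but none passed the test over all genes. The members and the gene lists below were chosen with earlier results of these data known. Their counts of higher and lower genes are therefore a description and no independent support. In kidney 9 of the 10 members had a higher mean fit in knockouts, with a median log2 fold change of 0.34, against 52.2% of all 17269 genes tested and a median of 0.01. In liver 8 of the 9 members tested were higher, with a median of 0.47, against 51.3% of 14591 genes and a median of 0.00. Mt2 was under the count filter in liver. At an adjusted p under 0.05 edgeR called 0 members in either tissue, where it called 0.00579% of all kidney genes (1 gene) and 0% of all liver genes. At an unadjusted p under 0.05, 2 members were higher in kidney (Tsc22d3 and Klf9) and 3 in liver (Tsc22d3, Per1 and Klf9), where 1.73% of all kidney genes and 2.08% of all liver genes were higher. DESeq2 called 15 genes in kidney with 0 members and 42 in liver with 1 member, Tsc22d3, and limma voom with sample weights called 4 and 5 genes with 0 members. Without mice 16 and 24, 7 of 10 members were higher in kidney and 8 of 9 in liver.

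**Figure D1:**
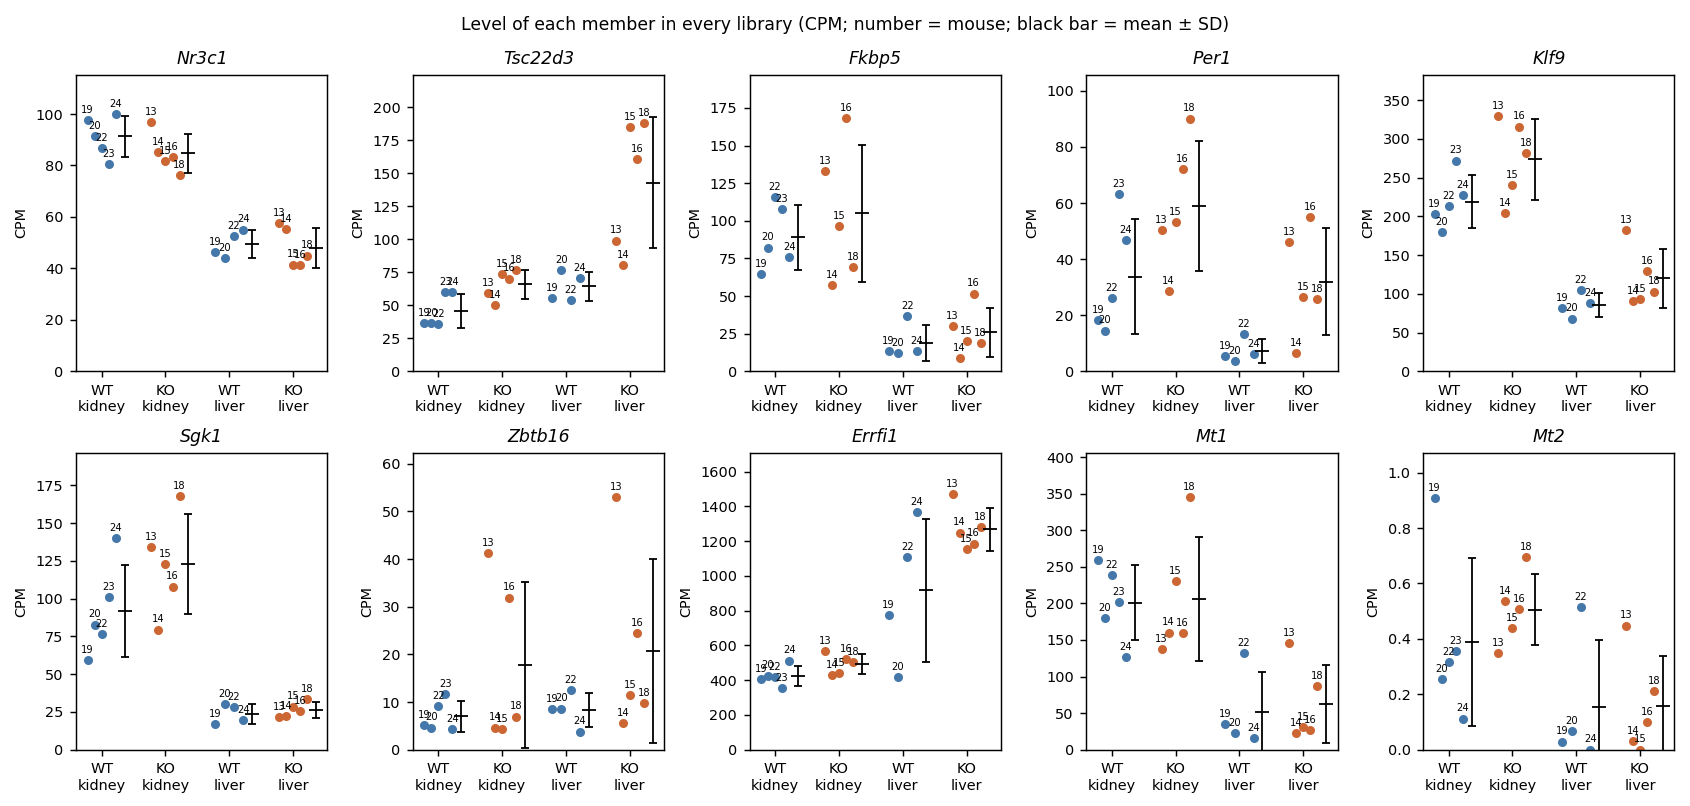
Level of each gene in CPM (vertical axis, linear, from 0) in every library, by tissue and genotype (WT wild type in blue, KO knockout in orange), with mouse numbers above the points and mean ± SD as black bars, which are cut off at 0 where the SD exceeds the mean. Tsc22d3 in liver is the only panel and tissue in which all knockouts (80.7 to 188 CPM) lie above all wild types (54.2 to 76.8 CPM).

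Tsc22d3, which encodes GILZ, a leucine zipper protein that carries much of the anti-inflammatory action of glucocorticoids, showed the clearest difference. Tsc22d3 (ENSMUSG00000031431, chrX:140539528-140600659, minus strand, GRCm38) was at 99.1, 80.7, 185, 161 and 188 CPM in the knockout livers 13, 14, 15, 16 and 18, and at 55.4, 76.8, 54.2 and 70.7 CPM in the wild-type livers 19, 20, 22 and 24. All knockouts lay above all wild types, by a narrow margin for mouse 14 and by a wide one for mice 15, 16 and 18. Of all genes tested in liver, 0.795% showed such a separation. The mean was 143 ± 49.7 CPM (SD, n = 5) against 64.3 ± 11.2 CPM (SD, n = 4), and the fitted log2 fold change was 1.15 (SE 0.25). The edgeR adjusted p was 0.522, and over the alternatives it ran from 0.00162 with DESeq2 to 0.998, so the call depended on the tool. The fold change stayed between 1.04 and 1.29 when single mice, or mice 16 and 24, were left out.

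In kidney Tsc22d3 was at 59.2, 50.4, 73.9, 70.2 and 76.7 CPM in knockouts and at 36.7, 36.6, 35.9, 59.8 and 60.3 CPM in wild types, in the same order of mice as for Nr3c1. Wild types 23 and 24 reached the range of knockouts 13 and 14, so the groups overlapped. Its log2 fold change was 0.53 (SE 0.17, edgeR adjusted p = 0.999). The effect in liver minus that in kidney was 0.63 (SE 0.33, edgeR adjusted p = 1). No gene passed that test of the difference between tissues (0% of 18549 genes, with 765 at an unadjusted p under 0.05 and 8 called by DESeq2), and no member was among the 765. DESeq2 had 1 member at an unadjusted p under 0.05. With the mouse number as a replicate block, edgeR also had 1, Tsc22d3 (0.43, SE 0.18, edgeR unadjusted p = 0.0345). There 0 genes passed after adjustment.

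Per1, a repressor of the circadian clock that the receptor induces directly, had the largest fold change of the members in liver. Per1 (ENSMUSG00000020893, chr11:69095217-69109960, plus strand) was at 46.2, 6.39, 26.5, 55.1 and 25.7 CPM in the knockout livers and at 5.57, 3.61, 13.3 and 6.15 CPM in the wild types. In all, 4 knockouts lay above every wild type, and mouse 14 lay among the wild types. The means were 32 ± 19.1 CPM (SD, n = 5) and 7.15 ± 4.22 CPM (SD, n = 4), and the fitted log2 fold change was 2.16 (SE 0.63, edgeR adjusted p = 0.952, and 0.115 to 1 over the alternatives). In kidney the knockouts had 50.4, 28.5, 53.3, 72.1 and 90.1 CPM and the wild types 18.4, 14.5, 26.2, 63.1 and 46.7 CPM, with wild types 23 and 24 inside the knockout range. There the fitted log2 value was 0.80 (SE 0.46, edgeR adjusted p = 0.999). The difference between tissues was 1.36 (SE 0.78, edgeR adjusted p = 1), and 0.96 without mice 16 and 24. With the mouse number as a replicate block it was 0.82 (SE 0.53).

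Klf9, a Krüppel-like factor that restrains other targets of the receptor, differed less and more evenly. Klf9 (ENSMUSG00000033863, chr19:23141226-23168134, plus strand) was at 329, 204, 240, 316 and 282 CPM in knockout and 203, 180, 213, 272 and 227 CPM in wild-type kidneys. Only knockouts 13, 16 and 18 exceeded every wild type. In liver the knockouts had 182, 91.1, 93.4, 129 and 103 CPM and the wild types 82, 68.2, 105 and 87.9 CPM, with mice 13 and 16 again the highest. The log2 fold change was 0.32 (SE 0.13, edgeR adjusted p = 0.999) in kidney and 0.48 (SE 0.21, edgeR adjusted p = 1) in liver. Without mouse 13 the liver value was 0.28.

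Fkbp5 encodes FKBP51, an immunophilin that lowers the receptor's affinity for hormone and so closes a feedback loop. Fkbp5 (ENSMUSG00000024222, chr17:28399094-28517527, minus strand) was at 133, 57.5, 96.5, 168 and 69.3 CPM in knockout and 64.8, 82.2, 116, 108 and 75.8 CPM in wild-type kidneys. In liver it was at 30.3, 8.78, 19.9, 51.7 and 18.8 CPM in knockouts and 13.4, 12, 36.6 and 13.6 CPM in wild types. The knockouts spanned the whole wild-type range in both tissues, with mouse 14 lowest and mouse 16 highest. On the log2 scale the fold change was 0.23 (SE 0.29, edgeR adjusted p = 0.999) in kidney and 0.45 (SE 0.54, adjusted p = 1) in liver, and it turned to -0.05 and -0.09 without mice 16 and 24.

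Zbtb16 encodes PLZF, a zinc finger repressor with a strong and slow response to glucocorticoids in many cells. Zbtb16 (ENSMUSG00000066687, chr9:48654297-48836222, minus strand) was at 41.2, 4.61, 4.27, 31.9 and 6.94 CPM in knockout and 5.13, 4.63, 9.21, 11.6 and 4.29 CPM in wild-type kidneys. In liver it was at 53, 5.55, 11.4, 24.4 and 9.7 CPM in knockouts and 8.52, 8.62, 12.5 and 3.79 CPM in wild types. Only mice 13 and 16 lay above the wild types, in both tissues, and the other 3 knockouts lay within or close to the wild-type range. The log2 fold changes of 1.35 (SE 0.74, edgeR adjusted p = 0.999) in kidney and 1.31 (SE 0.69, adjusted p = 1) in liver became 0.77 and 0.60 without mouse 13, and 0.90 and 1.01 without mice 16 and 24. With sample weights in limma voom the kidney value was 0.58.

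Sgk1 encodes a kinase that keeps the epithelial sodium channel at the cell surface and answers to both glucocorticoids and aldosterone. Sgk1 (ENSMUSG00000019970, chr10:21882184-21999903, plus strand) was at 134, 79.6, 123, 108 and 168 CPM in knockout and 59.5, 82.9, 76.5, 101 and 140 CPM in wild-type kidneys. The wild-type kidney 24, the library with high immediate early genes, was the only wild type above knockouts 13, 15 and 16. Knockout against wild type, the log2 fold change was 0.41 (SE 0.24, edgeR adjusted p = 0.999), 0.66 without mice 16 and 24 and 0.27 without mouse 18. In liver the range was 21.4 to 33.5 CPM in knockouts and 16.8 to 30.1 CPM in wild types, and the log2 fold change was 0.15 (SE 0.19, edgeR adjusted p = 1), from 0.01 without mouse 19 to 0.28 without mouse 20.

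Errfi1 encodes MIG6, an inhibitor of the EGF receptor that is also induced by growth factors. Errfi1 (ENSMUSG00000028967, chr4:150853919-150868892, plus strand) was at 1469, 1249, 1152, 1186 and 1279 CPM in the knockout livers and at 774, 418, 1109 and 1365 CPM in the wild types. In kidney it was at 567, 427, 441, 519 and 503 CPM in knockouts and at 408, 426, 418, 352 and 512 CPM in wild types. In each tissue mouse 24 was the only wild type that reached the knockouts. Its summed immediate early genes were the highest of the kidneys and, at 366 CPM, the highest of the wild-type livers, where knockouts had 105 to 425 CPM. Their part in the result was not tested. Fold changes on the log2 scale were 0.22 (SE 0.11, edgeR adjusted p = 0.999) in kidney and 0.47 (SE 0.27, adjusted p = 1) in liver, and 0.29 and 0.72 without mouse 24. They were lowest at 0.16 in kidney without mouse 13 or 23 and at 0.23 in liver without mouse 20. In kidney 0.29% of all genes had all knockouts above all wild types with no member among them, and 0.764% did without mouse 24, Errfi1 among them. In liver 1.86% did without mouse 24, with Tsc22d3 and Errfi1 among them.

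**Figure D2:**
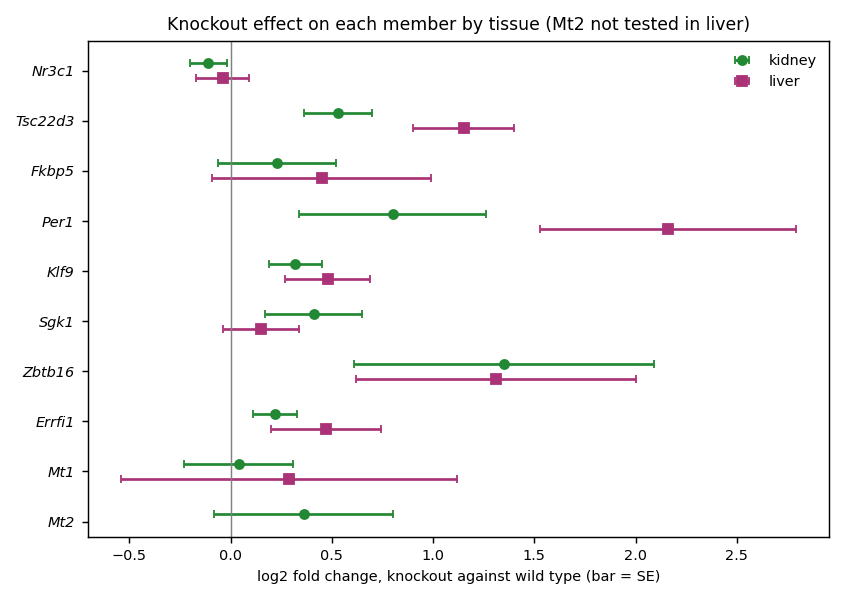
Log2 fold change of knockout against wild type (horizontal axis) for each gene in kidney (green circles) and liver (purple squares), with the SE as bars. The largest liver values are those of Per1 (2.16), Zbtb16 (1.31) and Tsc22d3 (1.15), while Nr3c1 lies near 0 in both tissues.

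The metallothioneins, small zinc- and copper-binding proteins that respond to both metals and glucocorticoids, overlapped between the genotypes in both tissues. Mt1 (ENSMUSG00000031765, chr8:94179082-94180327, plus strand) was at 138, 160, 231, 159 and 345 CPM in knockout and 259, 180, 239, 202 and 127 CPM in wild-type kidneys, with full overlap. In liver it was at 146, 22.3, 30.5, 26.6 and 87 CPM in knockouts and 34.6, 22.6, 132 and 15.3 CPM in wild types. Single animals of both genotypes were high there, mice 13, 18 and 22. The log2 fold change was 0.04 (SE 0.27, edgeR adjusted p = 0.999) in kidney and 0.29 (SE 0.83, adjusted p = 1) in liver, and its sign turned in kidney without mouse 15, 18 or 24 (-0.01, -0.23 and -0.09) and in liver without mouse 13 or 24 (-0.30 and -0.02). Without mice 16 and 24 it was -0.01 in kidney and 0.18 in liver.

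Mt2 (ENSMUSG00000031762, chr8:94172664-94173568, plus strand) had almost no counts, 3 to 29 per kidney library and 0 to 17 per liver library. On a scale per kilobase Mt1 stood at 161 ± 41.4 and Mt2 at 0.662 ± 0.517 CPM per kb in wild-type kidney (SD, n = 5). Of the exon bases of Mt2, 73.5% overlap the antisense gene Gm45774, and no source used here gives the strand setting of the counting, so their reads cannot be told apart. Gm45774 itself had 0 to 55 counts per library. Whether the overlap lowered the Mt2 counts was not tested. In kidney the log2 fold change of Mt2 was 0.36 (SE 0.44, edgeR adjusted p = 0.999), from 0.14 without mouse 24 to 0.93 without mouse 19.

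In wild-type kidney the order per kilobase ran from Mt1 (161 ± 41.4) and Errfi1 (118 ± 16) through Klf9 (45.5 ± 7.12) and Sgk1 (18.8 ± 6.23) to Nr3c1 (11.9 ± 1.04), Tsc22d3 (10.6 ± 2.99), Fkbp5 (9.43 ± 2.28) and Per1 (6 ± 3.65), with Zbtb16 (1.32 ± 0.619) and Mt2 lowest (CPM per kb, SD, n = 5). Of the neighbours in kidney, Errfi1 and Klf9, Klf9 and Sgk1, and Per1 and Zbtb16 lay apart by more than their summed SDs, and the order of the others was not resolved. In wild-type liver Errfi1 led (256 ± 115), followed by Mt1 (41 ± 43.8), Klf9 (17.8 ± 3.21), Tsc22d3 (14.8 ± 2.59), Nr3c1 (6.44 ± 0.685), Sgk1 (4.83 ± 1.33), Fkbp5 (2 ± 1.25), Zbtb16 (1.58 ± 0.678), Per1 (1.27 ± 0.75) and Mt2 (0.259 ± 0.412, all CPM per kb, SD, n = 4). Of the neighbours in liver, Errfi1 and Mt1, Tsc22d3 and Nr3c1, and Sgk1 and Fkbp5 lay apart by more than that.

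With TMM scaling over all libraries, 5 of 10 members passed the comparison of wild-type liver with wild-type kidney, where 71.9% of all genes passed. Errfi1 was higher in liver by 2.01 on the log2 scale (SE 0.21, edgeR adjusted p = 1.31e-08) and Tsc22d3 by 1.39 (SE 0.24, adjusted p = 2.95e-05). Lower in liver were Sgk1 (-1.06, SE 0.24, edgeR adjusted p = 6.40e-04), Fkbp5 (-1.34, SE 0.47, adjusted p = 0.0179) and Klf9 (-0.45, SE 0.18, adjusted p = 0.033). Per1 (-1.34, adjusted p = 0.0533), Mt1 (-1.08, adjusted p = 0.145), Zbtb16 (1.17, adjusted p = 0.18), Mt2 (-0.40, adjusted p = 0.673) and Nr3c1 (0.02, adjusted p = 0.898) did not pass in edgeR. With the mouse number as a replicate block, Zbtb16 (1.40, edgeR adjusted p = 1.80e-04) and Mt1 (-1.56, adjusted p = 0.0448) passed as well. These values depend on the scaling, since the median over all genes was -0.17 with TMM and -1.05 with library totals. With totals the split of passing members went from 2 higher and 3 lower to 2 higher and 6 lower. Errfi1 and Tsc22d3 stayed higher in liver (1.13 and 0.50), and Nr3c1 then passed as lower (-0.87, edgeR adjusted p = 4.53e-07). Fkbp5 missed the threshold without mouse 19, 20 or 24, and Klf9 without mouse 19, 20, 23 or 24 (adjusted p up to 0.069 and 0.0956 in edgeR). Without mouse 22, Mt1 (-2.08, edgeR adjusted p = 0.0105), Mt2 (-2.62, adjusted p = 0.0387) and Per1 (-1.90, adjusted p = 0.0255) passed, and Per1 also passed without mouse 14 (adjusted p = 0.0197) and with DESeq2 (adjusted p = 0.0225).

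Since hormone in the blood reaches both organs of an animal, the kidney and the liver with the same number were set side by side. What lies behind a shared level was not tested, and time of collection and diet of each mouse were not given. Over all genes, a kidney was most like the liver of its own number for 4 of 9 mice. Each level was taken as log2 CPM (with 2 added counts) minus the mean of its tissue and genotype, over 9 mice. All 9 members measured in both tissues had a positive Pearson r, with a median of 0.60, against 0.26 over 13847 genes. Fkbp5 had r = 0.92 (exact two-sided permutation p = 0.00243, adjusted p = 0.362 over all genes, Spearman rho = 0.85 with p = 0.00313), and 0.404% of all genes reached that r. Without the kidneys farthest from the median, 14 and 16, r was 0.80. For the values without the 2 farthest mice, here and below, the group means over all 9 mice were kept. A difference between genotypes can therefore enter them. Zbtb16 had r = 0.88 (exact permutation p = 0.00417, adjusted p = 0.382, rho = 0.85 with p = 0.0104), and 0.76 without mice 13 and 16. Klf9 had r = 0.83 (exact permutation p = 0.0187, adjusted p = 0.414, rho = 0.87 with p = 0.00972), and 0.80 without mice 14 and 20. Tsc22d3 had r = 0.69 (exact permutation p = 0.0205, adjusted p = 0.414, rho = 0.63 with p = 0.0611), and 0.83 without mice 18 and 24.

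**Figure D3:**
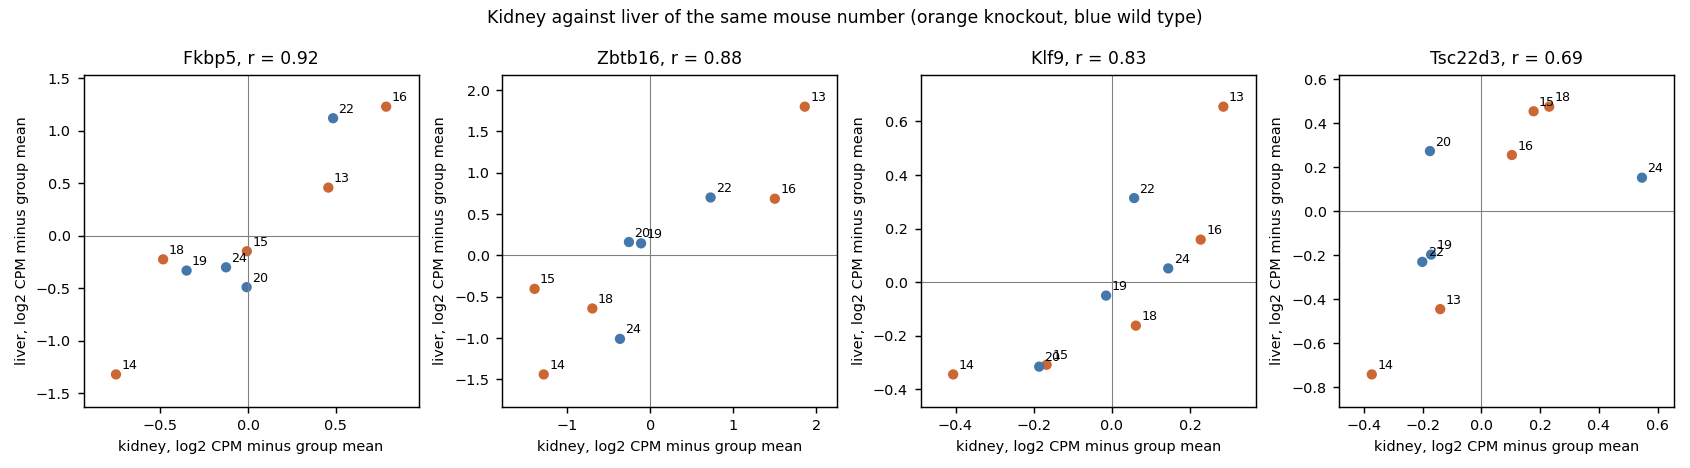
Deviation of each mouse from the mean of its group in kidney (horizontal axis) and liver (vertical axis), in log2 CPM, for the 4 genes with an unadjusted p under 0.05, with mouse numbers beside the points (orange knockout, blue wild type). For Fkbp5, r is 0.92, with mice 13, 16 and 22 high and mouse 14 low in both tissues.

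These 4 were the members with an unadjusted p under 0.05, a level that 9.76% of all genes reached with a positive r. No gene passed after adjustment (0%, smallest adjusted p 0.35 by the exact permutation, with 2880 arrangements and a smallest possible p of 3.47e-04). Relations were computed for all 13847 genes as 1 family. For Per1 r was 0.60 (exact permutation p = 0.106, rho = 0.57 with p = 0.132), for Nr3c1 0.55 (exact permutation p = 0.176, rho = 0.47 with p = 0.267), and for Errfi1 0.43 (exact permutation p = 0.274, rho = 0.52 with p = 0.169). For Mt1 r was 0.37 (exact permutation p = 0.339, rho = 0.55 with p = 0.174) and for Sgk1 0.26 (exact permutation p = 0.574, rho = 0.13 with p = 0.778). Without the 2 mice farthest from the median these became 0.55 for Per1, 0.26 for Nr3c1, -0.06 for Errfi1, 0.30 for Mt1 and 0.53 for Sgk1, so the relation of Errfi1 rested on mice 13 and 24. Leaving out mice 16 and 24, the libraries that stood apart, gave 0.87 for Fkbp5, 0.94 for Zbtb16, 0.86 for Klf9 and 0.93 for Tsc22d3. There the group means were taken without these mice, so the 2 kinds of values differ in method.

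Mouse by mouse, the highest libraries differed between members. Knockouts 13 and 16 held the 2 highest levels of Zbtb16 and Klf9 in both tissues and of Fkbp5 in kidney, while knockouts 15 and 18 held the 2 highest levels of Tsc22d3 in both. For Sgk1 they were mice 18 and 24 in kidney and 18 and 20 in liver, for Mt1 mice 18 and 19 and then 13 and 22, and for Per1 mice 16 and 18 and then 13 and 16. Of 8 induced members (all but Mt2), 6 to 7 were above the tissue median in the kidneys of knockouts 13, 15, 16 and 18 and 5 to 7 in their livers. Knockout 14 had 0 in kidney and 1 in liver, the level of wild types 19 and 20 (0 to 1 in both tissues). Among wild types, kidney 23 had 6 and liver 22 had 5. The kidney of mouse 16 carried the adrenal transcripts given above, and their part in these levels was not tested.

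**Figure D4:**
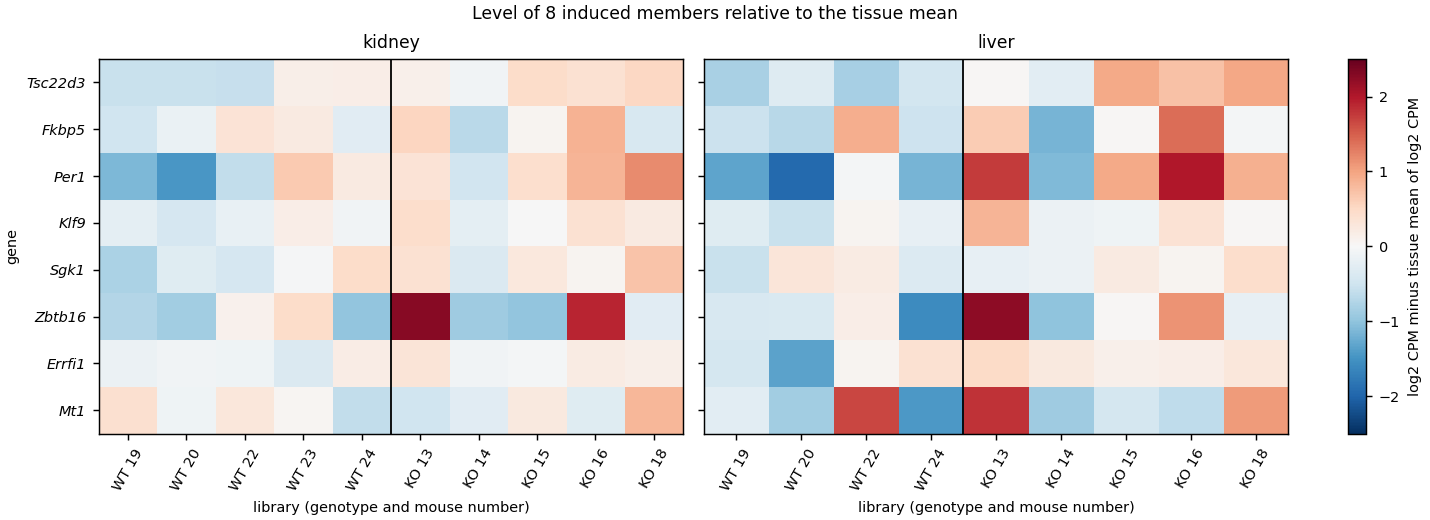
Log2 CPM of 8 induced genes (rows) minus the gene's mean over its tissue, in each library (columns, wild types left and knockouts right of the black line), for kidney and liver. Red is above and blue below the tissue mean, and knockout 14 has 0 of the 8 genes above the tissue median in kidney and 1 in liver.

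The genes most like Tsc22d3 were taken as those with the highest smaller value of the 2 correlations across libraries (10 kidneys, 9 livers) among 11570 genes. These correlations share the genotype difference and the libraries and are a description. They were Ccn2 (r = 0.87 in kidney and 0.86 in liver), Prdm2 (0.84 and 0.89), Coq10b (0.88 and 0.84), Cog3 (0.83 and 0.85), Trim30a (0.80 and 0.82), Noct (0.92 and 0.78), Luc7l (0.86 and 0.77), Rbm39 (0.75 and 0.75), Maf (0.79 and 0.73) and Oas1a (0.73 and 0.82). Ccn2 encodes a matricellular growth factor and Noct a rhythmic deadenylase-related enzyme. Among the members Per1 was closest (0.93 and 0.71), then Sgk1 (0.85 and 0.56). Klf9 (0.74 and 0.31), Errfi1 (0.46 and 0.32), Zbtb16 (0.27 and 0.31) and Fkbp5 (0.24 and 0.31) were further off, Mt1 (-0.03 and 0.03) showed none, and Nr3c1 ran the other way (-0.49 and -0.56).

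Other genes known to be induced by glucocorticoids were described by a list of 23 in the table. In kidney 18 of 23 tested were higher in knockouts and 5 lower, with a median log2 fold change of 0.24, and 0 passed in edgeR. The smallest p-values were those of Hif3a (log2 fold change 1.05, SE 0.34), the deubiquitinase gene Usp2 (0.33, SE 0.12) and the G protein regulator gene Rgs2 (0.38, SE 0.14), each with an edgeR adjusted p of 0.999. In liver 13 of 22 were higher and 9 lower, with a median of 0.16. There the smallest were Cebpd (0.76, SE 0.23, edgeR adjusted p = 0.934), a transcription factor gene, Angptl4 (1.29, SE 0.47, adjusted p = 1), an inhibitor of lipoprotein lipase, and the lipid phosphatase gene Lpin1 (2.15, SE 0.85, adjusted p = 1). Lpin1 ran from 27.2 to 509 CPM in knockout and from 26.3 to 151 CPM in wild-type livers.

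The hepatic enzymes that glucocorticoids raise gave 13 higher and 3 lower of 16 in liver, with a median of 0.21 and 0 passing. Tat, the tyrosine aminotransferase long used as a readout of the receptor, had a mean of 1603 ± 297 CPM (SD, n = 5) in knockout and of 1126 ± 180 CPM (SD, n = 4) in wild-type liver, and its fitted log2 fold change was 0.51 (SE 0.15, edgeR adjusted p = 0.885). Igfbp1, an insulin-repressed binding protein of growth factors, was at 238 ± 47.7 (SD, n = 5) against 122 ± 54.1 CPM (SD, n = 4), or 0.96 (SE 0.28, edgeR adjusted p = 0.915). In kidney the list split evenly, 6 higher and 6 lower of 12, with a median of -0.01. Genes of the receptor's partners and of steroid metabolism gave 7 higher and 10 lower of 17 in kidney and 10 higher and 7 lower of 17 in liver (medians -0.05 and 0.01). In that list Serpina6, the plasma carrier of corticosterone made by the liver, was at 159 ± 41.6 CPM in knockout (SD, n = 5) and 113 ± 9.84 CPM in wild-type liver (SD, n = 4), and the fitted log2 fold change was 0.50 (SE 0.16, edgeR adjusted p = 0.961). Hsd11b1, which regenerates active hormone inside cells, was at 516 ± 50.5 against 499 ± 25.8 CPM in liver (SD, n = 5 and 4).

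Salt transport genes under corticosteroid control lay near 0 (9 higher and 5 lower of 14 in kidney, median 0.03), as did the zinc and metal genes (4 higher and 5 lower of 9 in kidney, 3 and 6 of 9 in liver, medians -0.01 and -0.06). Clock genes, to which Per1 also belongs by function, gave 11 higher and 7 lower of 18 in kidney and 7 and 11 of 18 in liver, with medians of 0.12 and -0.06. The fasting genes gave 5 higher and 9 lower of 14 in kidney and 11 and 4 of 15 in liver (medians -0.04 and 0.16), and the acute phase genes 3 and 6 of 9 in kidney and 4 and 10 of 14 in liver (medians -0.04 and -0.06). Some genes stand in more than 1 list. Igfbp1, Pdk4, Angptl4 and Ppargc1a of the fasting list are also in the lists of induced genes or hepatic enzymes above. So are Per2 of the clock list and Lcn2 of the acute phase list. All 11 immediate early genes tested in kidney were lower in knockouts, with a median of -0.45, and the library of wild type 24 carried the high sum given above. In all of these lists 0 genes passed in edgeR, in either tissue.

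Sums of markers of other cells are given beside these results, and their ranges overlapped between the genotypes. The summed skeletal muscle markers were at 1.45 to 17.3 CPM in knockout and 1.39 to 3.67 CPM in wild-type livers, with the lowest knockout value in mouse 14 and the highest in mouse 13, and all 8 markers were detected in both groups. All 7 muscle markers tested in liver were higher in knockouts. At an edgeR unadjusted p under 0.05 there were 6, where 2.08% of all liver genes were higher, and 0 passed after adjustment. The 12 leukocyte markers summed to 82.2 to 112 CPM in knockout and 101 to 140 CPM in wild-type livers, and to 119 to 144 CPM in knockout and 131 to 167 CPM in wild-type kidneys. Of the 12, only Ly6g was at 0 in all knockout kidneys, and no marker was at 0 in all wild-type kidneys. The summed ranges overlapped in both tissues. The 8 adipocyte markers summed to 247 to 811 CPM in knockout and 305 to 737 CPM in wild-type kidneys. The part of these cells in the differences of Tsc22d3, Per1 and the other members was not tested.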

How the data were processed

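Raw, unnormalized counts of 26506 genes in 19 libraries were deposited as 1 table, each gene with at least 10 counts in sum. Per the submitters' processing notes, Trim Galore, STAR, featureCounts, DESeq2 and GRCm38 were used, without versions. No source used here gives the strand setting. Identifiers without version were matched to GENCODE M21 (26417 matched, 89 not), and promoter sequences are RefSeq's on GRCm38.p6.

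Each tissue was fitted on its own with edgeR 4.0.16 in R 4.3.3 (quasi-likelihood, robust, TMM, filterByExpr with a minimum count of 10), two-sided, with Benjamini-Hochberg adjustment over all genes and a threshold of 0.05. The difference between tissues and the wild-type tissue contrast came from 1 fit of all libraries. SEs come from the F statistic. Alternatives were DESeq2 1.42.0, limma 3.58.1 voom with sample weights, other scalings, no filter, a mouse block, and leaving out mice. The fits were tested on simulated counts. The kidney-liver relation used exact permutations of mice within genotype. The 18 gene lists, of which the members are 1 (214 of 218 listed genes in the table), were chosen with earlier results of these data known. All members are named, and from each list at most the 3 genes with the smallest p in a tissue, together with cell markers at 0. Hsd11b1 and the adrenal genes named are outside that rule and were named after their values were seen.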

Additional observations from a re-analysis of the deposited data

Results flagged for a closer look

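The wild-type liver of mouse 22 lay far from the other 3 wild-type livers for 3 members. It had 36.6 CPM of Fkbp5, 132 CPM of Mt1 and 0.514 CPM of Mt2. Its gap to the nearest of the others was 0.931 of the group's range for Fkbp5, 0.835 for Mt1 and 0.87 for Mt2, each above Dixon's critical value. Of 40 groups of a gene, tissue and genotype examined, these 3 stood out, where chance gives about 2. All 3 were in 1 library, so they are not independent of each other.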

How the results depend on the processing

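The number of genes past the threshold moved with the tool and the mice. In kidney it was 1, and 15 with DESeq2, 4 with limma voom, 3 with all libraries in 1 fit, 4 with no filter, 12 without mice 16 and 24 (chosen after seeing the data) and 1 to 10 when each mouse was left out, 10 of them without mouse 16 and 7 without mouse 24. In liver it was 0, with 609 at an unadjusted p under 0.05 in edgeR, and 42, 5, 21, 3, 11 and 0 to 7 in the same order, 7 without mouse 16 and 5 without mouse 24. For the difference between tissues it was 0, and 8 with DESeq2, 4 without mice 16 and 24 and 0 to 3 when each mouse was left out. The cause was not tested.

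Signs that turned, as log2 fold changes, were those of small effects. Without mice 16 and 24 they were Fkbp5 (-0.05 in kidney, -0.09 in liver, -0.02 for the difference), Mt1 in kidney (-0.01), Nr3c1 in liver (0.07) and Zbtb16 for the difference (0.12). With limma voom Mt1 in kidney was -0.07. When each mouse was left out, Fkbp5 ran from -0.01 to 0.38 and Mt1 from -0.23 to 0.15 in kidney, Nr3c1 from -0.11 to 0.01 and Mt1 from -0.30 to 1.37 in liver. For the difference, Zbtb16 ran from -0.30 to 0.22, Mt1 from -0.44 to 1.26 and Mt2 from -1.40 to 1.85. For the tissue contrast, Nr3c1 ran from -0.03 to 0.09 and Mt2 from -2.62 to 0.55, and Nr3c1 was -0.87 with library totals and -0.02 with no filter. The kidney-liver r of Sgk1 ran from -0.04 to 0.69.

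With the mouse number as a replicate block, 13194 genes passed the tissue contrast (13329 without it) and 0 the difference between tissues. The block gave 7 members in place of 5 in the tissue contrast, adding Zbtb16 (1.40) and Mt1 (-1.56), and Nr3c1 was -0.03. The kidney of a mouse correlated with its own liver by 0.0827 to 0.416, under 0.1 for 2 of 9 mice and best for 4 of 9, and the fits reported first have no block. Without each mouse in turn, 3 to 8 members passed that contrast.

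Apart from Mt2, with 0 to 29 counts per library, members had at least 98 counts in every library.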
